A study of Mus musculus with 24 samples.

Results

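Protease inhibitors of 3 gene families, the serpins, the Kazal-type Spink genes and the WAP-domain Wfdc genes, were examined in whole kidney RNA of the Schlager mouse strains. A gene was taken as a member when its symbol begins with Serpin, Spink or Wfdc and a probe set of the array carries that symbol alone. This gave 79 of the 18782 genes with a probe set of their own: 48 serpins (*Serpina*, *Serpinb* and the smaller clades), 13 *Spink* and 18 *Wfdc* genes. Kidneys came from 12 week old mice in 4 groups of 6: BPH/2J males, BPN/3J males, BPH/2J females and BPN/3J females. BPH/2J mice are spontaneously hypertensive and BPN/3J mice are their normotensive control, both derived by selective breeding, so that strain background and blood pressure cannot be told apart. One mouse gave 1 Affymetrix Mouse Gene 1.0 ST array. The study asked which renal genes differ between the strains in each sex. All values are log2 expression after robust multiarray analysis (RMA), and a difference of 1 on this scale is a change of 2-fold.

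Serpins trap a serine protease by offering it a bait loop: the cleaved serpin changes shape and the protease stays bound and inactive. Most clade A serpins are secreted by the liver into blood, where antitrypsin restrains neutrophil elastase. Serpins of smaller clades also act in blood. There antithrombin and heparin cofactor II restrain clotting, antiplasmin restrains fibrinolysis and C1 inhibitor restrains complement. Clade B serpins stay inside cells. Some serpins inhibit nothing, such as the hormone carriers corticosteroid-binding globulin and thyroxine-binding globulin and the collagen chaperone Hsp47. Spink proteins carry Kazal domains that block trypsin-like enzymes, and Wfdc proteins carry the four-disulfide core of whey acidic protein, found in elastase inhibitors and antimicrobial proteins of mucosal surfaces.

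The largest strain and sex differences below include genes of the antitrypsin cluster, and *Alb* is the hepatocyte transcript against which all members were set, so the stretches before their start sites are shown. They are 100 bases each from RefSeq promoters of GRCm38.p6, written in the direction of transcription, with capitals marking GTTAAT, an arm of the palindromic site of the liver and kidney factor HNF1.
Serpina1d, chr12:103773634-103773733, minus strand: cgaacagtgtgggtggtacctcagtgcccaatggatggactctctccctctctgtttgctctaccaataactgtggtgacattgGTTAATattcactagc
Serpina1b, chr12:103738200-103738299, minus strand: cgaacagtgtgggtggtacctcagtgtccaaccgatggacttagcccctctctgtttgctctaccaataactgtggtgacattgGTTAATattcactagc
Serpina1c, chr12:103904962-103905061, minus strand: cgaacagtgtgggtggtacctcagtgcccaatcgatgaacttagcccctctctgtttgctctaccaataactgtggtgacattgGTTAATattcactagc
Alb, chr5:90460754-90460853, plus strand: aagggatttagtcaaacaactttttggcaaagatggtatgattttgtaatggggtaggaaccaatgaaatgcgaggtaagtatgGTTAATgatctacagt
Serpina1f, chr12:103695530-103695629, minus strand: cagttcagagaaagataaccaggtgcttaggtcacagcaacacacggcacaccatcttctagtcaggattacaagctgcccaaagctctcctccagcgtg
The windows of *Serpina1d*, *Serpina1b* and *Serpina1c* were near-copies, with 93 of 100 bases the same between *Serpina1d* and *Serpina1b*, 94 between *Serpina1d* and *Serpina1c* and 97 between *Serpina1b* and *Serpina1c*. The window of *Serpina1f* matched them at 24 to 26 of 100 bases and holds no GTTAAT. Windows with GTTAAT were placed by that site, and end 1 base before the start in *Serpina1d*, 11 in *Serpina1b*, 12 in *Serpina1c* and 17 in *Alb*. The window of *Serpina1f* was placed at its start site. Bases were compared position by position without gaps, so the low match of *Serpina1f* does not measure how related its promoter is. On either strand of the 250 bases before the start, GTTAAT occurs in 7 of the 56 members with a listed promoter and in 6.43% of all 32851 listed promoters. A member counts when any of its listed promoters holds the site, while the share is per promoter, so the figures are not strictly alike. The near-copies *Serpina1b*, *Serpina1c* and *Serpina1d* are among the 7. These matches describe letters and not binding.

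The tissue label was checked first: 9 of 9 measured markers of tubule and glomerulus lay above the median probe set (6.92) in every group. Array medians were 6.89 to 6.97, and arrays of 1 group correlated at 0.981 to 0.997. The sex labels were borne out by *Xist*, at 12.26 or more in every female and 5.75 or less in every male. The hepatocyte transcript *Alb* differed between arrays of the same group, and spanned 8.83-12.82 among BPH/2J males and 8.45-11.96 among BPN/3J males. It spanned 9.54-13.24 among BPH/2J females and 9.85-13.89 among BPN/3J females, highest in numbers 2 and 5. The mean of 15 hepatocyte markers spanned 7.06-9.83 among BPH/2J males and 6.67-9.06 among BPN/3J males. In females it spanned 6.73-9.94 in BPH/2J and 6.53-12.21 in BPN/3J. Whether these signals came from liver tissue was not tested. The mean of an adrenal cortex list of 8 genes spanned 5.85-8.77 among BPH/2J males and 5.76-9.05 among BPN/3J males, and 5.86-10.14 among BPH/2J females and 5.68-10.44 among BPN/3J females. In whole kidney, fewer cells of a type and less RNA per cell cannot be told apart.

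Most members were dim. The array files give no detection call, and 52 of the 79 lay below the median probe set in all 4 groups, among them 19 of 24 clade B serpins, 10 of 13 *Spink* and 12 of 18 *Wfdc* genes. Among the 8 brightest members by mean, *Wfdc15b* had group medians of 11.88 in BPH/2J males, 12.01 in BPN/3J males, 12.27 in BPH/2J females and 12.39 in BPN/3J females. The other 7 were *Serpinf2* (antiplasmin), *Spink1* (the pancreatic trypsin inhibitor), *Serpina1f*, *Serping1* (C1 inhibitor), *Wfdc2* (the epithelial secretory protein HE4), *Serpina1b* and *Serpinb9* (the granzyme B inhibitor).

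**Figure D1:**
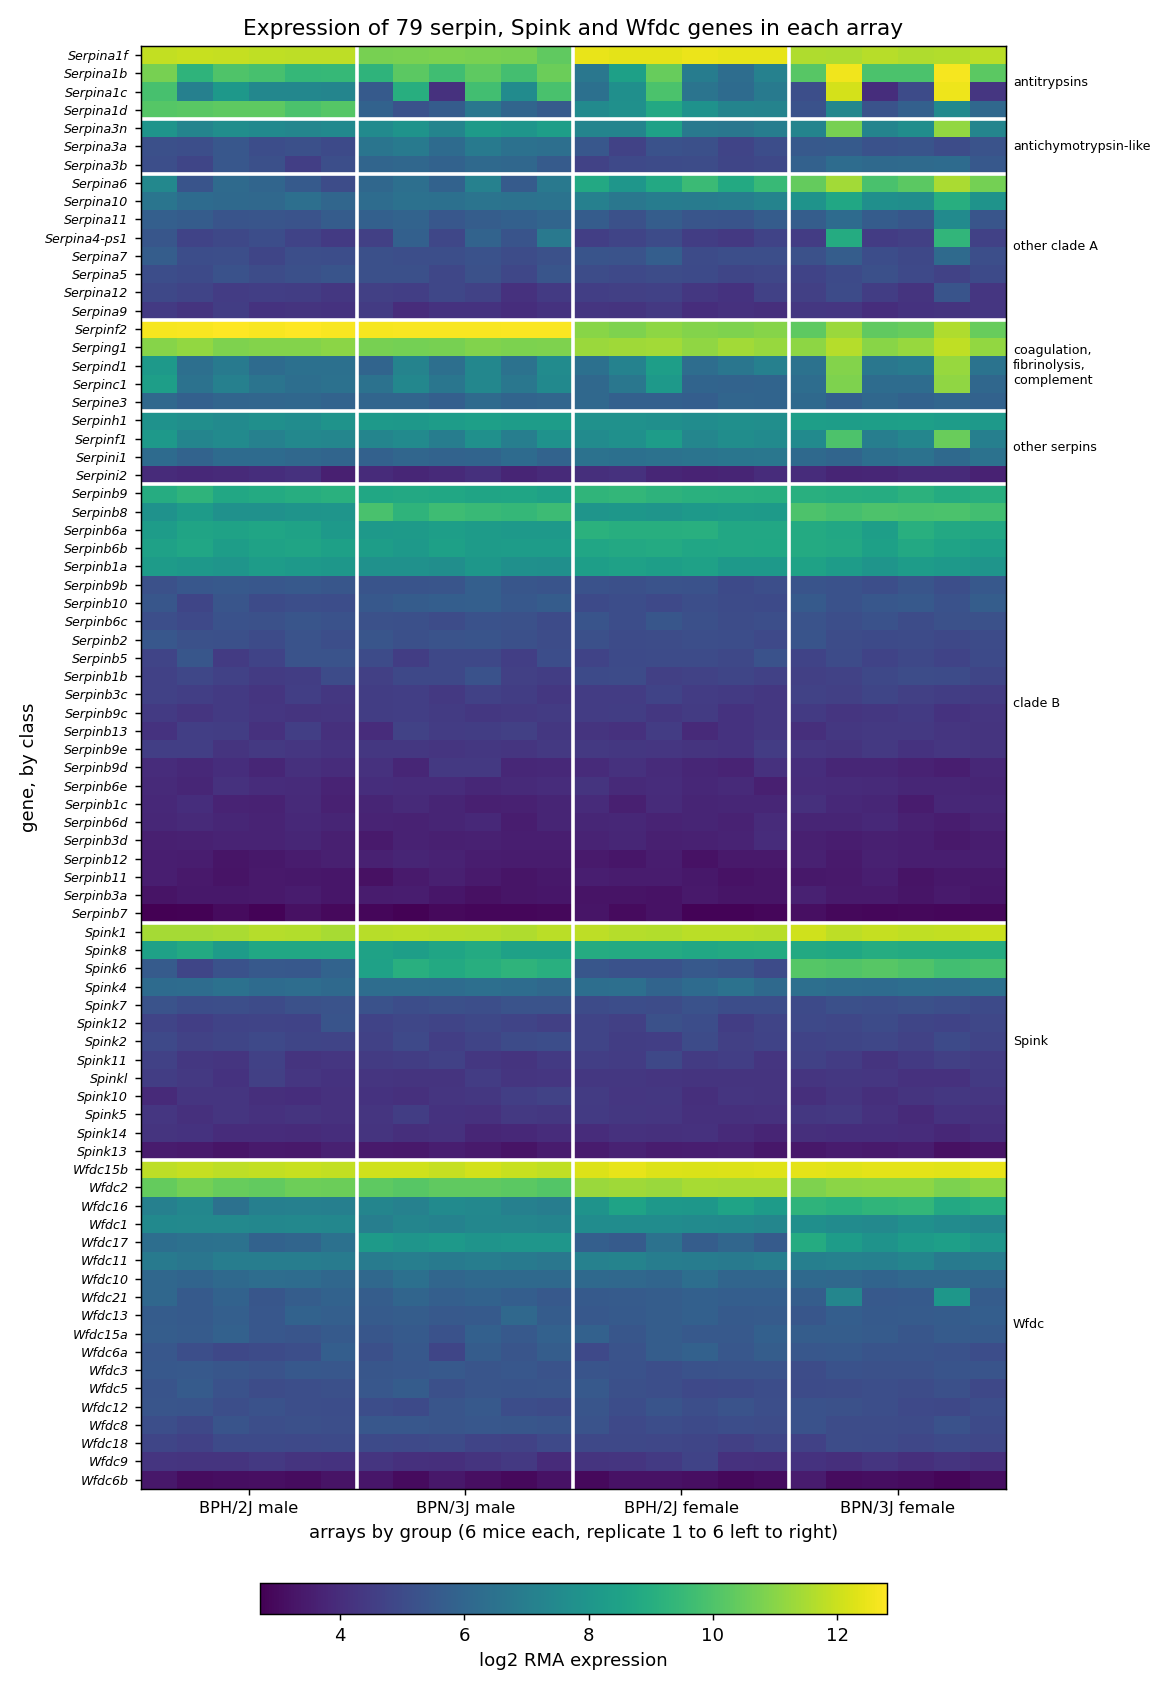
Log2 RMA expression (colour) of the 79 members (rows, by class and by mean within class) in the 24 arrays (columns, replicates 1 to 6 of each group from left to right). *Spink6*, *Wfdc17* and *Serpinb8* change level with strain and *Serpinf2* and *Serpina6* with sex, while *Serpina1c*, *Serpinc1*, *Serpind1* and others are bright in single arrays such as BPN/3J females 2 and 5.

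Between strains, 15 members passed in males in limma, at a threshold of 0.05 on p-values adjusted by Benjamini and Hochberg across 28853 probe sets. Of these 6 were higher and 9 lower in BPH/2J, or 19% of members against 15.2% of all probe sets. In females 17 passed, 5 higher and 12 lower, or 21.5% against 14.5%. The members' median difference was 0.00 in males and -0.02 in females, beside 0.00 and 0.02 for all probe sets. Of the passing members 10 were shared by the sexes, all in the same direction, 3 higher and 7 lower, which is 66.7% of the male and 58.8% of the female calls. The same overlap was not counted over all probe sets, so it is not shown to be a trait of these families. With the Bonferroni adjustment 6 passed in each sex, against 2.56% of all probe sets in males and 2.36% in females.

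*Spink6*, a Kazal inhibitor of kallikrein-related peptidases in human skin, had the largest fall in both sexes. Its lowest, median and highest values were 4.80, 5.51 and 5.94 in BPH/2J males, against 8.50, 9.04 and 9.27 in BPN/3J males. In females they were 5.01, 5.32 and 5.53 in BPH/2J, against 9.74, 10.05 and 10.16 in BPN/3J. No array of one strain reached the other, and all BPH/2J arrays lay below the median probe set. The difference was -3.53 in males (SE 0.168, 11.6-fold, limma adjusted p = 4.95e-09) and -4.69 in females (SE 0.0909, 25.9-fold, limma adjusted p = 5.68e-12; n = 6 per group). Of the other 12 *Spink* genes only *Spink1* passed between strains, lower by -0.16 (SE 0.0492) in males and -0.19 (SE 0.0503) in females with overlapping groups. The male call is lost without any 1 array but BPH/2J males 4 and 5 and BPN/3J male 5 (-0.14 to -0.17), and the female call without BPH/2J female 2 or 3 or BPN/3J female 6 (-0.17 to -0.18). In the order of members along the chromosome *Spink6* stands between *Spink14* and *Spink12*, whose strain differences were 0.03 and 0.05 in males and 0.01 and -0.03 in females.

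*Wfdc17*, a WAP protein known from activated macrophages and microglia, had the next largest fall in females among members that do not follow *Alb*. It had 5.89, 6.41 and 6.51 (lowest, median, highest) in BPH/2J males, against 7.94, 8.01 and 8.19 in BPN/3J males. In females it had 5.61, 5.72 and 6.51 in BPH/2J, against 7.91, 8.28 and 8.93 in BPN/3J. The groups did not overlap in either sex, with a difference of -1.76 (SE 0.105, 3.38-fold, limma adjusted p = 6.21e-08) in males and -2.43 (SE 0.185, 5.4-fold, limma adjusted p = 1.02e-06) in females. *Wfdc18*, the next member on chromosome 11, differed by 0.00 and -0.10 in males and females and did not pass. Of 6 measured macrophage markers 4 were lower in BPH/2J males and 3 in BPH/2J females, beside 7.7% and 6.48% of all probe sets. The mean of the list lay at 7.88 to 8.07 in BPH/2J males, against 8.13 to 8.31 in BPN/3J males, and at 7.94 to 8.19 in BPH/2J females, against 8.09 to 8.63 in BPN/3J females. *Adgre1*, which encodes the macrophage antigen F4/80, fell by 0.34 in males and by 0.48 in females, while *Cd68* differed by -0.01 and 0.01. The part of macrophages in the fall of *Wfdc17* was not tested.

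Among the *Wfdc* genes with values above the median, *Wfdc2* was higher in BPH/2J of both sexes, by 0.26 (SE 0.0604) in males and 0.41 (SE 0.0568) in females, with no overlap in either. It had 10.38, 10.50 and 10.71 in BPH/2J males, against 10.10, 10.29 and 10.32 in BPN/3J males. *Wfdc16* was lower in BPH/2J females, at 7.90, 8.17 and 8.58, against 8.79, 9.20 and 9.39 in BPN/3J females (difference -0.90, SE 0.135, limma adjusted p = 0.000467). In males it did not pass (-0.23). *Wfdc8*, named after its values were seen, passed only in males at -0.27 (SE 0.0603) with overlapping groups and values of 4.90 to 5.45, among the dim ones.

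Of the 24 clade B serpins, which act inside cells, BPH/2J males had 3 higher and 2 lower, and BPH/2J females had 1 higher and 3 lower, beside 15.2% of all probe sets called in males and 14.5% in females. *Serpinb8*, whose human counterpart inhibits furin, had 7.80, 7.90 and 8.24 in BPH/2J males, against 9.29, 9.59 and 9.90 in BPN/3J males. It had 7.96, 8.10 and 8.24 in BPH/2J females, against 9.75, 9.93 and 9.98 in BPN/3J females. The fall was -1.64 in males (SE 0.0987, limma adjusted p = 6.54e-08) and -1.80 in females (SE 0.0596, limma adjusted p = 1.41e-10), and the interaction of strain and sex did not pass. *Serpinb10* adjoins *Serpinb8* in the order of members on chromosome 1 and was also lower, by -0.47 (SE 0.0924) in males and -0.43 (SE 0.0728) in females, without overlap, at 4.82 to 5.42 in BPH/2J and 5.26 to 5.75 in BPN/3J over both sexes. The next member, *Serpinb2*, differed by -0.03 in males and 0.01 in females. In males *Serpinb1a*, *Serpinb6b* and *Serpinb9*, all on chromosome 13, were higher by 0.30, 0.23 and 0.32 (SE 0.0683, 0.0631 and 0.0798) with overlapping groups; the first 2 were named after their values were seen, and the call of *Serpinb6b* is lost without BPH/2J male 5 or BPN/3J male 2 or 4 (0.20 to 0.22). The dim *Serpinb12* (-0.18) and *Serpinb3d* (0.22), also named after their values were seen, passed in females. The call of *Serpinb12* is lost without any 1 array but BPH/2J female 3 and BPN/3J female 2 (-0.14 to -0.19), and that of *Serpinb3d* without any 1 of BPH/2J females 1, 2 and 5 and BPN/3J females 2, 4, 5 and 6 (0.19 to 0.22).

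*Serpinh1*, the collagen chaperone Hsp47, was lower in BPH/2J of both sexes without overlap. It had 7.54, 7.70 and 7.88 in BPH/2J males, against 8.10, 8.29 and 8.42 in BPN/3J males, and 7.62, 7.73 and 7.82 in BPH/2J females, against 8.12, 8.35 and 8.40 in BPN/3J females. The difference was -0.54 (SE 0.0706, limma adjusted p = 0.000122) in males and -0.58 (SE 0.053, limma adjusted p = 6.26e-06) in females. Its size was thus nearly the same in both sexes. *Serpini1*, or neuroserpin, an inhibitor of tissue plasminogen activator, passed in females at 0.31 (SE 0.0916) and is named after its value was seen; the groups overlapped, and the call is lost without any 1 array but BPH/2J female 2 and BPN/3J females 4 and 6 (0.25 to 0.32).

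In the antitrypsin cluster the copies went different ways. *Serpina1d* had 9.95, 10.18 and 10.30 in BPH/2J males, against 5.26, 5.78 and 6.72 in BPN/3J males. In females it had 7.21, 7.67 and 8.81 in BPH/2J, against 5.24, 5.97 and 7.49 in BPN/3J. BPH/2J males therefore stood above every other group, BPH/2J females came next and overlapped the highest BPN/3J females. The male difference was 4.31 (SE 0.185, 19.8-fold, limma adjusted p = 3.17e-09) and the female 1.52 (SE 0.42, 2.88-fold, limma adjusted p = 0.0273). The female call is lost with Bonferroni adjustment, with a replicate block, with the methods' t-test, with the trend and robust options of eBayes and without any 1 of BPH/2J females 2, 3 and 4 or BPN/3J females 1, 3, 4 and 6 (1.31 to 1.52), and the difference was 2.13 (limma adjusted p = 0.000684) without BPN/3J females 2 and 5.

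*Serpina1f*, whose promoter window holds no GTTAAT, was among the brightest and tightest members. It had 11.78, 11.85 and 11.97 in BPH/2J males, against 10.33, 10.75 and 10.80 in BPN/3J males, and 12.38, 12.42 and 12.50 in BPH/2J females, against 11.56, 11.62 and 11.75 in BPN/3J females. All 12 BPH/2J arrays thus lay above all 12 BPN/3J arrays, by 1.17 in males (SE 0.0748, limma adjusted p = 1.26e-07) and 0.79 in females (SE 0.0403, limma adjusted p = 2.09e-08).

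*Serpina1b* had 9.27, 9.66 and 10.73 in BPH/2J males and 9.27, 10.01 and 10.53 in BPN/3J males, which did not differ past the threshold (-0.17). In females it had 6.30, 7.05 and 10.44 in BPH/2J, against 9.96, 10.21 and 12.66 in BPN/3J (difference -3.27, SE 0.734, limma adjusted p = 0.00843). The groups overlap through BPH/2J female 3, the array of that group with the most *Alb*, and without BPN/3J females 2 and 5 the difference was -2.43 (limma adjusted p = 0.042). *Serpina1c* passed in no comparison, and its strain differences had wide errors (0.20, SE 0.924, in males and 0.11, SE 1.54, in females). In the 1 array of each group with the lowest *Alb* it was at 7.12 in BPH/2J males and 5.55 in BPN/3J males. In females these arrays gave 6.58 in BPH/2J and 4.32 in BPN/3J. A strain difference at low *Alb* was not tested. Because these copies are so alike, their probe sets may share targets, and how a signal divides between them is uncertain. A pair of probe sets carry 4 and 5 antitrypsin symbols, and so are no members. They were higher in BPH/2J males by 2.00 (SE 0.321) and 2.07 (SE 0.348) and did not pass in females (-0.61 and -0.48). The set with 4 symbols carries *Serpina1a*, *Serpina1b*, *Serpina1c* and *Serpina1e* but not *Serpina1d*. Within groups the sets correlated with *Alb* at 0.89 and 0.87. Which copies carry their rise in males was not tested.

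Further along chromosome 12, *Serpina3a* and *Serpina3b*, of the expanded mouse group related to human antichymotrypsin, were both lower in BPH/2J males. *Serpina3a* had 4.99, 5.15 and 5.43 in BPH/2J males, against 6.23, 6.57 and 6.82 in BPN/3J males (difference -1.40, SE 0.103, limma adjusted p = 5.03e-07), and did not pass in females (-0.25). *Serpina3b* was lower by -0.92 (SE 0.135) in males and -1.12 (SE 0.125) in females with no overlap. *Serpina6*, corticosteroid-binding globulin, had 8.02, 8.81 and 9.57 in BPH/2J females, against 9.91, 10.55 and 11.51 in BPN/3J females (difference -1.78, SE 0.311, limma adjusted p = 0.0015). *Serpina10*, an inhibitor of clotting factor Xa, was lower in BPH/2J females too, at 6.70 to 7.22, against 7.64 to 9.04 in BPN/3J females (difference -1.18, SE 0.222). Neither *Serpina6* nor *Serpina10* passed in males (-0.39 and -0.22). The *Serpina10* value of 9.04 was that of BPN/3J female 5, the array with the most *Alb*.

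**Figure D2:**
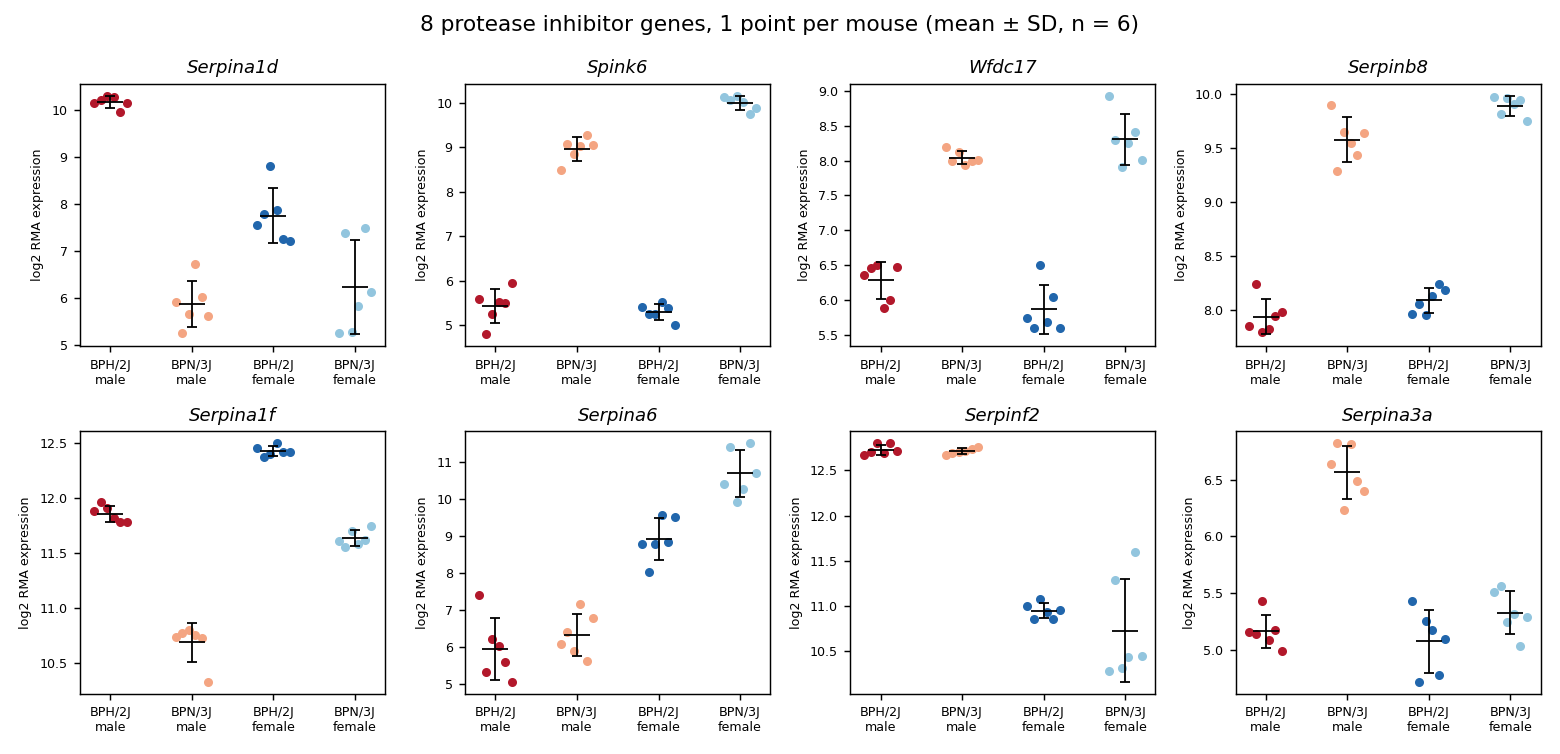
Log2 RMA expression of 8 members in each mouse (points, 6 per group; bars are mean ± SD). BPH/2J lies apart from BPN/3J in both sexes for *Spink6*, *Wfdc17*, *Serpinb8* and *Serpina1f*, the *Serpina1d* points of BPH/2J males stand above 9.9, and *Serpinf2* and *Serpina6* separate the sexes.

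**Figure D3:**
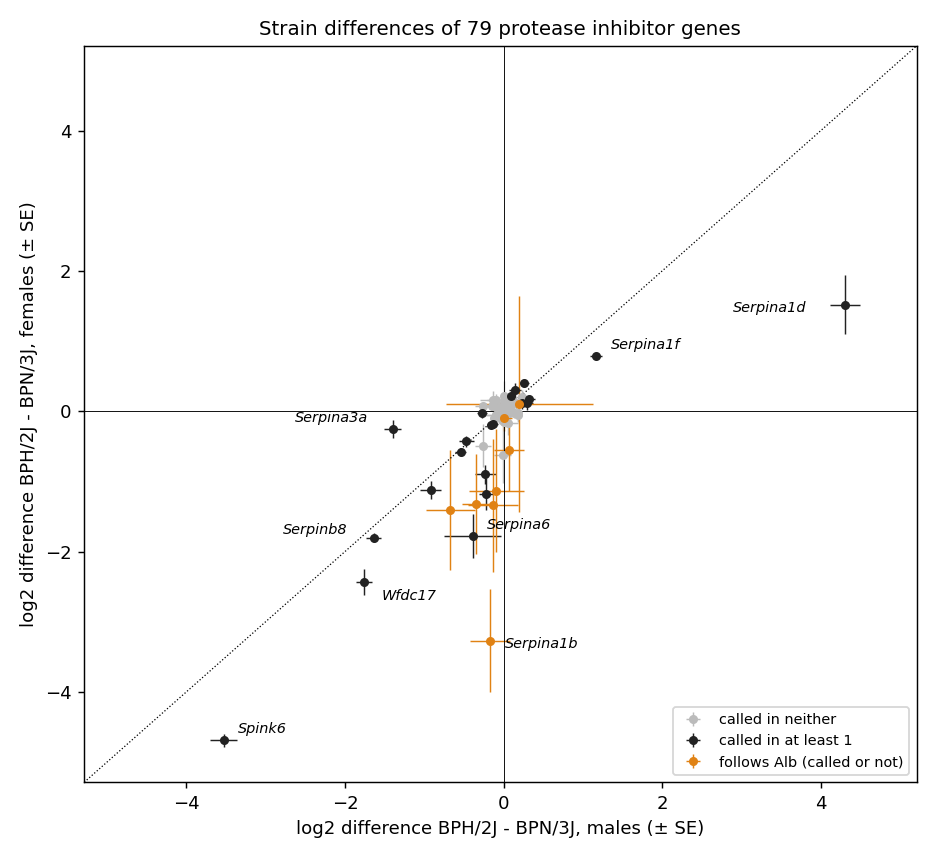
Log2 difference BPH/2J minus BPN/3J of the 79 members in males (horizontal) and females (vertical), with SE bars; the dotted line marks equal differences. *Spink6* lies lowest at -3.53 and -4.69, *Serpina1d* lies far to the right at 4.31 and 1.52, and 7 of the 8 members that follow *Alb*, all but *Serpina7*, carry the widest female bars.

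The strain difference itself was compared between the sexes by the interaction in limma over all 24 arrays, female minus male. It passed for 4 members, 1 positive and 3 negative, or 5.06% against 1.76% of all probe sets. *Serpina1d* (-2.78, SE 0.484, limma adjusted p = 0.00152) rose less in BPH/2J females than in BPH/2J males. *Spink6* (-1.16, SE 0.202, limma adjusted p = 0.00152) fell further in females. *Serpina3a* (1.15, SE 0.169, limma adjusted p = 2e-04) had its strain difference in males, and *Serpina1f* (-0.38, SE 0.0859, limma adjusted p = 0.0196) a smaller one in females. With the Bonferroni adjustment only *Serpina3a* passed, against 0.36% of all probe sets.

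Between the sexes, 17 members passed in BPH/2J, 11 higher and 6 lower in females, or 21.5% against 28.9% of all probe sets. In BPN/3J 22 passed, 17 higher and 5 lower in females, or 27.8% against 29.2%. The members' median difference was -0.01 in BPH/2J and 0.05 in BPN/3J, beside -0.00 and -0.02 for all probe sets. Neither share of calls exceeded the background. With the Bonferroni adjustment 5 passed in BPH/2J and 7 in BPN/3J, against 4.72% and 4.74% of all probe sets.

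*Serpina6* had the largest sex difference. It had 8.02, 8.81 and 9.57 in BPH/2J females, against 5.05, 5.80 and 7.41 in BPH/2J males, and 9.91, 10.55 and 11.51 in BPN/3J females, against 5.62, 6.25 and 7.15 in BPN/3J males. No male reached a female of its strain, with differences of 2.99 in BPH/2J (SE 0.366, limma adjusted p = 3.88e-05) and 4.38 in BPN/3J (SE 0.31, 20.9-fold, limma adjusted p = 2.71e-07). The adrenal list mean had a median of 9.95 in BPH/2J females, against 6.82 in BPH/2J males, and 9.43 in BPN/3J females, against 6.54 in BPN/3J males, and 2 of its 8 genes passed in BPH/2J, both higher in females, where 15.6% of all probe sets were. In the females with the lowest adrenal mean, 5.86 in BPH/2J female 6 and 5.68 in BPN/3J female 6, *Serpina6* was at 9.52 and 10.70. Without BPN/3J females 2 and 5 the BPN/3J difference was 4.01.

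*Serpinf2*, the plasmin inhibitor antiplasmin, went the other way. It had 10.86, 10.95 and 11.08 in BPH/2J females, against 12.67, 12.71 and 12.80 in BPH/2J males, and 10.28, 10.44 and 11.60 in BPN/3J females, against 12.67, 12.71 and 12.76 in BPN/3J males. The difference was -1.78 in BPH/2J (SE 0.0457, limma adjusted p = 1.69e-11) and -1.99 in BPN/3J (SE 0.206, limma adjusted p = 9.37e-06). The value of 11.60 was that of BPN/3J female 5, the array with the most *Alb*. The males of both strains shared a median, and *Serpinf2* passed in neither strain comparison (0.01 in males and 0.22 in females).

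*Wfdc16* and *Wfdc2* were higher in females of both strains without overlap. *Wfdc16* differed by 1.22 in BPH/2J (SE 0.151) and 1.89 in BPN/3J (SE 0.113), and *Wfdc2* by 0.87 (SE 0.0577) and 0.73 (SE 0.0596). The bright *Wfdc15b* differed by 0.41 (SE 0.041) and 0.39 (SE 0.0522). *Serpina10* was higher in females by 0.71 (SE 0.108) in BPH/2J and 1.67 (SE 0.215) in BPN/3J, and *Serpina1f* by 0.57 (SE 0.0419) and 0.95 (SE 0.0744). *Serpinb6a*, whose human counterpart inhibits cathepsin G, was higher by 0.52 (SE 0.096) and 0.55 (SE 0.0903), and *Serping1* by 0.33 (SE 0.0622) and 0.53 (SE 0.125). Among BPN/3J females the highest values of *Serpina10* (9.04) and *Serping1* (11.82) were in female 5, the array with the most *Alb*.

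Other members passed between the sexes of 1 strain. *Serpina1d* was lower in BPH/2J females than in BPH/2J males, by -2.43 (SE 0.217, limma adjusted p = 2.47e-06), and differed by 0.36 in BPN/3J. *Spink6* was higher in BPN/3J females than in BPN/3J males, by 1.04 (SE 0.115, limma adjusted p = 1.76e-05), and differed by -0.13 in BPH/2J. *Serpina3a* was lower in BPN/3J females than in BPN/3J males, by -1.24 (SE 0.112, limma adjusted p = 2.77e-06), and differed by -0.09 in BPH/2J. For these 3 genes the interaction given above tests the same difference. *Serpina1b* was lower in BPH/2J females than in BPH/2J males by -2.13 (SE 0.587), with overlapping groups, and the methods' t-test does not call it.

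**Figure D4:**
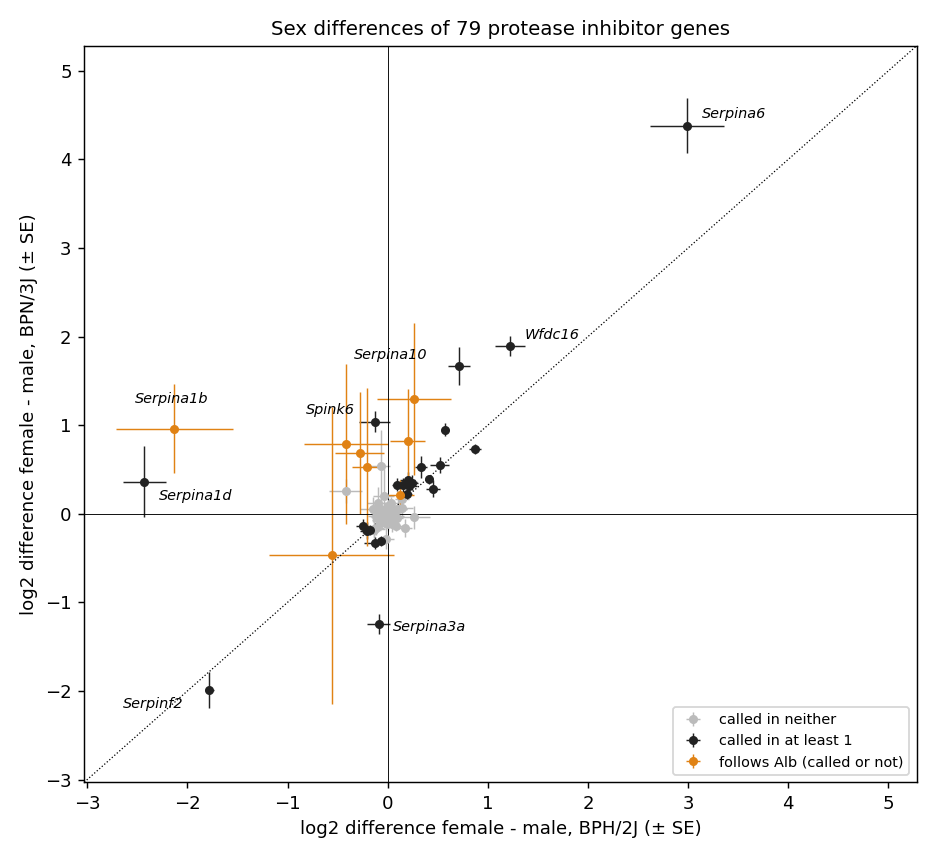
Log2 difference female minus male of the 79 members in BPH/2J (horizontal) and BPN/3J (vertical), with SE bars; the dotted line marks equal differences. *Serpina6* stands at the upper right (2.99 and 4.38), *Serpinf2* at the lower left (-1.78 and -1.99), and *Serpina1d*, *Spink6* and *Serpina3a* lie near an axis.

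To set apart members that follow *Alb*, each was correlated with it over the 24 arrays after removing group means. This is a description over arrays that were normalised together and share 4 groups. Correlation reached 0.7 for 8 members: *Serpina1c* (0.89), *Serpina1b* (0.88), *Serpind1* (0.86), *Serpinc1* (0.84), *Serpina3n* (0.79), *Serpinf1* (0.78), *Serpina4-ps1* (0.75) and *Serpina7* (0.73). *Serpind1* is heparin cofactor II, *Serpinc1* antithrombin, *Serpinf1* the pigment epithelium-derived factor, a serpin without inhibitory action, and *Serpina7* thyroxine-binding globulin. *Serpina1d* and *Wfdc21*, both at 0.62, were nearest below the limit. Another 7 members lay at 0.5 to 0.7, these 2 among them, and 64 lay under 0.5. BPN/3J females 2 and 5 were also the arrays farthest from the median *Alb*, and without them *Serpinc1* stood at 0.90, *Serpind1* at 0.93, *Serpina1c* at 0.88 and *Serpina1b* at 0.81, while *Serpina7* stood at 0.60, below the limit. *Serpina1d* then stood at 0.36.

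In the array of each group with the highest *Alb*, *Serpinc1* was at 8.37 in BPH/2J males, 7.40 in BPN/3J males, 8.16 in BPH/2J females and 11.13 in BPN/3J females. In the array with the lowest *Alb* it was at 6.50, 6.53, 5.96 and 6.07 in the same groups. *Serpina1c* spanned still more, from 4.03 to 12.53 within BPN/3J females. *Serpina1d* in BPH/2J males kept within 9.95 to 10.30 over an *Alb* range of 8.83 to 12.82, with 10.21 in the array lowest and 10.14 in the array highest for *Alb*. In the other groups *Serpina1d* was higher in the array highest for *Alb*. The lowest and highest *Alb* arrays gave 5.90 and 6.72 in BPN/3J males, 7.87 and 8.81 in BPH/2J females, and 6.13 and 7.49 in BPN/3J females.

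*Serpina1b* followed *Alb* from different levels. At the lowest *Alb* of each group it was at 9.27 in BPH/2J males, 9.27 in BPN/3J males, 6.94 in BPH/2J females and 10.24 in BPN/3J females. With *Alb* as a covariate the female strain difference was -2.73 (limma adjusted p = 1.91e-05), and that of *Serpina1d* was 1.81 (limma adjusted p = 0.000123).

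The members that follow *Alb* had wide errors: their median SE was 0.281 in the male and 0.795 in the female strain comparison, against 0.0763 and 0.0761 for the other 71 members. In limma 0 of the 8 passed between strains in males (1 at an unadjusted p under 0.05, 0 by the methods' t-test) and 1, *Serpina1b*, in females. Between the sexes 1, again *Serpina1b*, passed in BPH/2J (0 by the methods' t-test) and 0 in BPN/3J (0 at an unadjusted p under 0.05, 0 by the methods' t-test). A strain difference of these genes in kidney cells could go undetected here even when larger than its error. In females *Serpina3n* differed by -1.32 (SE 0.713, limma adjusted p = 0.279) and did not pass. Of the 7 that have a listed promoter, 3 hold GTTAAT, beside 6.43% of all listed promoters. They are *Serpina1b*, *Serpina1c* and *Serpina7*, and the windows of the first 2 are near-copies.

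**Figure D5:**
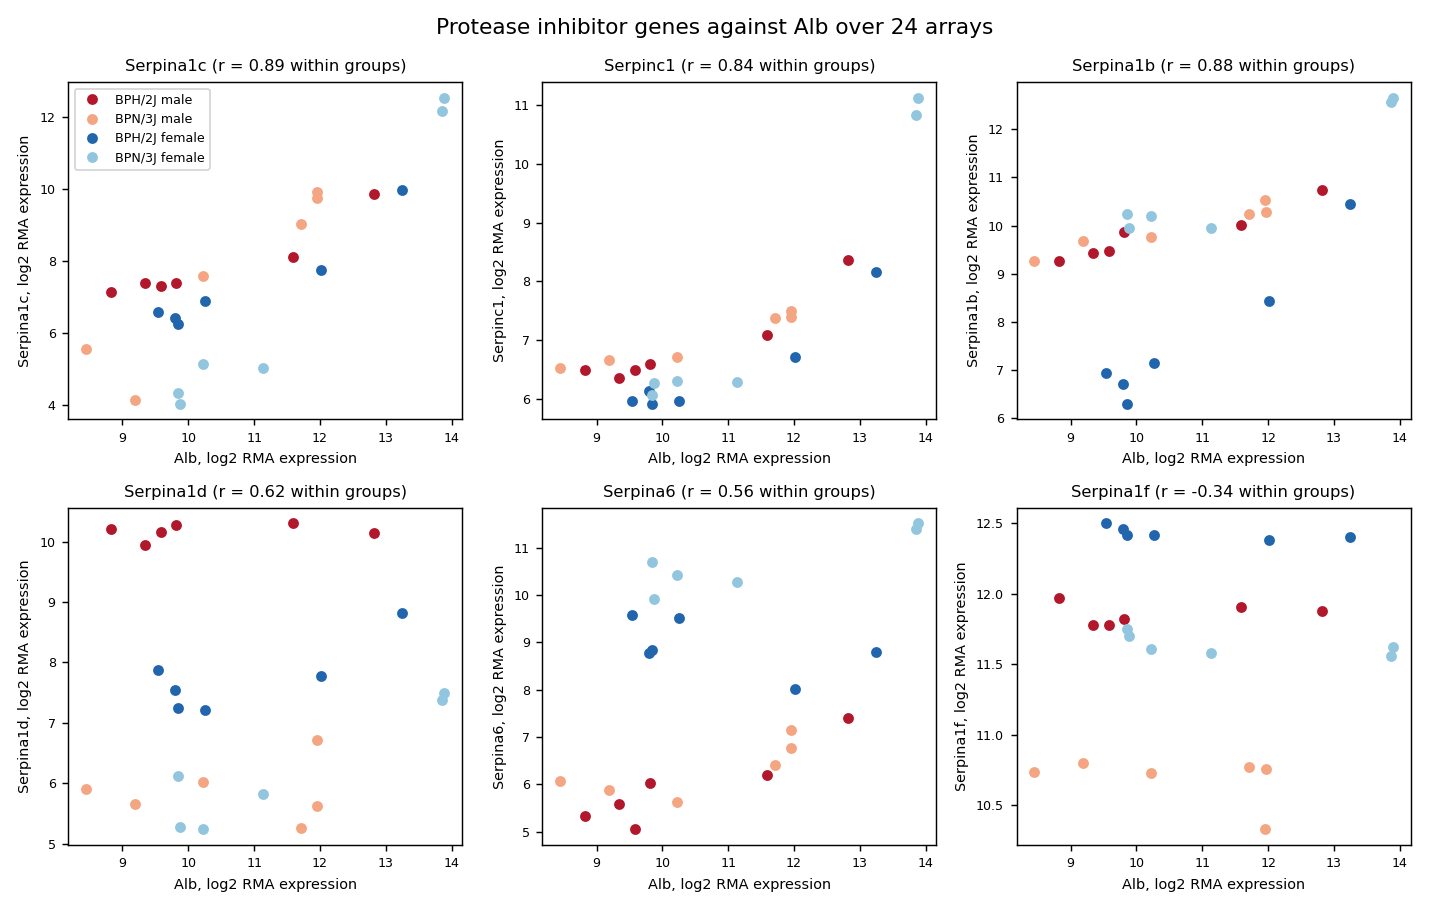
Log2 RMA expression of 6 members (vertical) against *Alb* (horizontal) in the 24 arrays, coloured by group. *Serpina1c*, *Serpinc1* and *Serpina1b* climb with *Alb* (r of 0.89, 0.84 and 0.88 within groups), and *Serpina1f* forms 4 flat bands. BPH/2J males hold *Serpina1d* near 10.18 at any *Alb*, while in each other group it is higher at the highest *Alb* than at the lowest.

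Finally, proteases and inhibitors outside the 3 families were counted. Of 34 measured serine and related proteases, BPH/2J males had 2 higher and 4 lower (7.48% and 7.7% of all probe sets), and BPH/2J females had 3 higher and 2 lower (8.01% and 6.48%). *Plat*, tissue plasminogen activator, was higher in BPH/2J by 0.43 (SE 0.0699) in males and 0.47 (SE 0.0443) in females, and the lysosomal cysteine protease *Ctsl* was lower by -0.34 (SE 0.0378) and -0.33 (SE 0.0379). *Htra1* passed in females only (0.34, SE 0.0456), and its interaction passed (0.36, SE 0.0591). Of 23 other inhibitors 5 were higher and 3 lower in males and 6 higher and 2 lower in females. The broad-range inhibitor *A2m* was higher by 1.29 (SE 0.101) in males and 1.06 (SE 0.149) in females, and *Tfpi*, the tissue factor pathway inhibitor, by 0.50 (SE 0.0587) and 0.45 (SE 0.0428). *Tfpi2* was lower by -0.45 (SE 0.0594) and -0.32 (SE 0.0619), and the non-inhibitory serpin angiotensinogen, *Agt*, by -0.32 (SE 0.0759) and -0.42 (SE 0.0891).

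Between the sexes 8 of the 34 proteases were higher and 5 lower in BPH/2J females (15.6% and 13.4% of all probe sets), and 9 were higher and 5 lower in BPN/3J females (14.4% and 14.8%). *Hgfac*, the activator of hepatocyte growth factor, was higher in females by 0.70 (SE 0.0577) in BPH/2J and 1.12 (SE 0.174) in BPN/3J. Of the 23 inhibitors 5 were higher and 5 lower in BPH/2J females (15.6% and 13.4% of all probe sets). In BPN/3J females 6 were higher and 3 lower (14.4% and 14.8%). *Pzp*, a relative of *A2m* made in liver, was lower in females by -4.80 (SE 0.618) in BPH/2J and -3.62 (SE 1.15) in BPN/3J, the widest error among the inhibitors named.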

How the data were processed

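Kidney RNA of 24 mice was measured on 1 array each. The log2 expression values deposited by the authors are RMA-normalised; no RMA version is named in the sources used here. RMA flattens differences of dim probe sets. Groups came from the labels. Symbols came from the array annotation: of 28853 probe sets 21159 carry 1 symbol, 1881 several and 5813 none, and 5 family probe sets with several symbols are no members. Each of the 79 members had 1 probe set. Values were used as deposited.

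Strains were compared within sex and sexes within strain on 12 arrays by limma 3.58.1 in R 4.3.3 (lmFit, eBayes), and the interaction on all 24, with Benjamini-Hochberg adjustment over all probe sets and a threshold of 0.05. The methods used a t-test with Bonferroni adjustment, kept here as alternatives. Each array is a separate mouse, and their number limits the precision. The fits were tested on simulated data. Following *Alb* meant a Pearson r of at least 0.7 between deviations from group means.

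Named were up to 12 called members per strain comparison and 8 per sex comparison with groups that do not overlap, those called in the interaction (up to 6), those that follow *Alb*, those nearest its limit, the 8 brightest, *Serpinb8* and *Serpinh1*, and up to 8 called genes of each other list by size; others are said to be named after the fact. Members, lists and classes were chosen with earlier results of these data known. Marker lists covered kidney, liver, adrenal cortex, macrophage, fat, pancreas, neutrophil and squamous or urothelial cells. Alternatives were the methods' t-test, Bonferroni, a 1.5-fold minimum, a common median, quantile normalisation, leaving out probe sets under the 40th percentile of the mean, eBayes with trend and robust, a replicate block, *Alb* as a covariate, all arrays in 1 fit, and single arrays left out. Figures were drawn in matplotlib.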

Additional observations from a re-analysis of the deposited data

Results flagged for a closer look

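Not all members but 39 were tested for a single array far from the others of its group. Independent tests would give about 1 in 20 by chance. Members share arrays and several follow *Alb*, so the tests were not independent and the share found cannot be set against that figure. In groups of 6, a single array stood far from the others by Dixon's criterion for 13 values among 156 tested groups (8.33%). In BPH/2J male 1, the array of that group with the most *Alb*, this was the case for *Serpina1c* (9.85), *Serpinc1* (8.37), *Serpind1* (8.14), *Serpinf1* (8.16) and *Serpina7* (5.70), all of which follow *Alb*. In BPH/2J female 3, likewise the highest for *Alb* in its group, it was the case for *Serpina3n* (8.47) and *Serpinc1* (8.16). High values of members that do not follow *Alb* were *Serpinb1a* (8.06) and *Serpinb9b* (5.75) in BPN/3J male 4, the array of its group with the most *Alb*, and *Wfdc15b* (12.41) in BPH/2J female 2. Low values were *Serpina1f* (10.33) in BPN/3J male 6, *Serpinh1* (8.12) in BPN/3J female 6 and *Wfdc16* (6.47) in BPH/2J male 3.

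The strain difference of 4 members differed between females and males by the interaction in limma: *Serpina1d* (-2.78), *Spink6* (-1.16), *Serpina3a* (1.15) and *Serpina1f* (-0.38).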

How the results depend on the processing

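No called member changed direction in any of 1792 values over the alternatives; 1606 kept the call and 186 lost it. With Bonferroni adjustment 6 members passed between strains in males, 6 in females, 5 between sexes in BPH/2J, 7 in BPN/3J and 1 in the interaction, and of the other proteases and inhibitors 4 (against 17) passed between strains. A minimum of 1.5-fold left 7, 10, 7 and 8 members in the 4 comparisons and 2 of the other genes. The share of all probe sets at this minimum is not given, so these counts have no background. With a limit of r at 0.5 the members that follow *Alb* numbered 15, at 0.8 they numbered 4, and against the mean of the hepatocyte list 14. Those reached only against that list were *Serpinf2* and *Wfdc21* (both 0.82), *Serpina1d*, *Serpina10* and *Serping1* (each 0.77) and *Serpina11* (0.74). Liver RNA may thus enter the values of these genes as well, which was not tested. Without BPN/3J females 2 and 5 their r with *Alb* was 0.25 for *Serpinf2*, 0.35 for *Wfdc21* and 0.36 for *Serpina1d*. It was then 0.23 for *Serpina10*, 0.20 for *Serping1* and 0.27 for *Serpina11*. The r with the hepatocyte list is not given without these arrays and may rest on them. Leaving out each array in turn gave 13 to 16 members between strains in males, 13 to 15 in females, 16 to 20 between sexes in BPH/2J, 21 to 24 in BPN/3J and 4 to 6 in the interaction. Without BPN/3J females 2 and 5 the counts were 17 between strains in females, 23 between sexes in BPN/3J and 6 in the interaction, and 7 members followed *Alb*.

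The labels do not say whether replicate numbers pair the mice. Deviations of same-numbered arrays correlated at -0.57 to 0.44. Differently numbered arrays were not compared, so this range does not settle it. With the number as a replicate block, 14 and 15 members passed between strains in males and females, 17 and 21 between sexes in BPH/2J and BPN/3J, 4 in the interaction and 16 of the other genes. The female call of *Serpina1d* was among those lost.

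Depth in the sense of reads does not apply to arrays. Values of dim members rest on signals near the lower end of the scale, and no detection call was analysed here.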

Other observations

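The other marker lists gave these values. Of 6 fat markers 3 were higher in BPH/2J females than in BPN/3J females, beside 8.01% of all probe sets, and the list mean was 8.07 to 9.14 in BPH/2J females, against 7.04 to 7.92 in BPN/3J females. In males 1, *Lep*, passed, and was lower in BPH/2J (7.7% of all probe sets were). Of the same 6 markers 3 were higher in BPH/2J females than in BPH/2J males (15.6% of all probe sets), and 2 were lower in BPN/3J females than in BPN/3J males (14.8%). Of 15 hepatocyte markers 1 was higher in BPH/2J males than in BPN/3J males (7.48% of all probe sets) and 2 were lower in BPH/2J females than in BPH/2J males (13.4%). Of 7 squamous or urothelial markers 2 were higher in BPH/2J females than in BPN/3J females (8.01% of all probe sets). In BPN/3J females 4 were lower than in BPN/3J males (14.8%). The 5 measured pancreas markers averaged 5.30 to 5.65 over all arrays and the 6 neutrophil markers 5.27 to 5.49. Both lay below the median probe set of 6.92. Of the neutrophil markers 1, *S100a8*, was lower in BPN/3J females than in BPN/3J males, by -0.17 (SE 0.0538), beside 14.8% of all probe sets.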
